A study of Mus musculus with 8 samples.

Results

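Striatal interneurons were followed through 10 genes that mark their classes, of 22221 genes named on a mouse expression array, and measured by 13 of its 55681 non-control probes. The members were chosen with earlier results of these data known. Every probe bearing one of their names was taken: 4 probes of 3 cholinergic genes (Chat, Slc5a7, Slc18a3), 5 probes of 4 genes of the Sst/Npy/Nos1 class (Sst, Npy, Nos1, Cort), 2 probes of Pvalb, 1 of Calb2 and 1 of Th. RNA came from the striatum of male mice aged 4 weeks, with 4 arrays of wild-type (WT) control mice and 4 of R6/2 mice. R6/2 is a single transgenic line carrying the first exon of human huntingtin with an expanded CAG repeat, driven by the human gene's own promoter, and is used as a model of Huntington's disease. The labels give no repeat length, no strain background and no treatment. Whether the samples are from different animals is not stated in them, and the spread that each p-value is judged against may therefore be in part technical.

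The striatum consists mostly of GABAergic projection neurons, and its interneurons are a small minority that regulate them. Cholinergic interneurons make acetylcholine with the enzyme encoded by Chat, load it into vesicles with the transporter encoded by Slc18a3 and take choline back up with the transporter encoded by Slc5a7. The other classes are GABAergic: one releases the peptides somatostatin (Sst) and neuropeptide Y (Npy) and makes nitric oxide (Nos1), one is fast-spiking and contains parvalbumin (Pvalb), one contains calretinin (Calb2), and one expresses tyrosine hydroxylase (Th), the rate-limiting enzyme of catecholamine synthesis. In post-mortem Huntington's disease striatum, loss of projection neurons with sparing of several interneuron classes is the classical description.

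Values are log2 of the processed spot signal minus log2 of the 75th percentile of the same array, so that 0 is the 75th percentile. They rank arrays for one probe and do not compare one probe with another. The 75th percentile lay between 434 and 486 signal units on the 8 arrays, from 61.5% to 67.7% of probes per array exceeded background clearly, 0 spots were saturated, and the correlation between arrays within a genotype was 0.983 to 0.992. All 8 arrays were on 1 slide, with the WT samples in one row and the R6/2 samples in the other, so genotype and slide row cannot be told apart. All 13 member probes were well above background on all 8 arrays. WT 1 stood apart in markers of thalamus, as given below with the parvalbumin probes.

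Most probes were 60-base stretches at a single place on the mm9 build, and 30 bases of those that bear on how a value is read are shown, 5′ to 3′. Capitals mark a run with a 4-base period in the Chat probe and the polyadenylation hexamer AATAAA in the probes of Slc18a3 and Cort.
Chat bases 31 to 60: gctattcAGAAAGAAAGAAAGAAAGAAAGA
Slc18a3 bases 29 to 58: ccggcctgaattAATAAAccatatctgtct
Cort bases 29 to 58: caacgagacctgAATAAAgactgtcaatca
The run covers 23 bases of the Chat probe, and a run of this kind of at least 12 bases was found in 16 of 55681 probes (0.0287%). AATAAA was present in 10.1% of probes. Both features were looked for after the probe sequences had been seen, on the strand of the probe. The Npy probe spans 3703 bases beyond its own 60 in the genome, so it bridges an intron, which is why it is shown. It holds neither feature and so has no capitals.
Npy bases 31 to 60: caccagacagagatatggcaagagatccag

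All 13 probes read lower on average in R6/2, and 1 of them, Th, passed the test. Differences ran from -0.73 for a Pvalb probe to -0.13 for Calb2, with a median of -0.45, or -0.41 with the brightest probe of each gene, against 0.01 over all 35121 probes tested and 0.02 over all 16565 named genes. Of all tested probes 48.1% had a negative difference, 1.14% were called lower and 0.367% higher at an adjusted p under 0.05 (limma with Benjamini-Hochberg adjustment over all tested probes). An unadjusted p under 0.05 was reached by 10 of the 13 probes, against 9.20% of all probes in this direction and 7.82% in the other. In 4 of the 13, those of Slc18a3, Sst, Npy and Th, all R6/2 arrays lay below all WT arrays, against 6.19% of all probes. The count at an unadjusted p under 0.05 fell to 5 without WT 1, 4 without WT 4, 5 without R6/2 4, 4 when arrays were scaled to their median and 5 with the methods' t-test. A p that misses the threshold does not show that the genotypes did not differ. In bulk RNA, fewer cells of a class and less RNA per cell cannot be told apart.

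**Figure D1:**
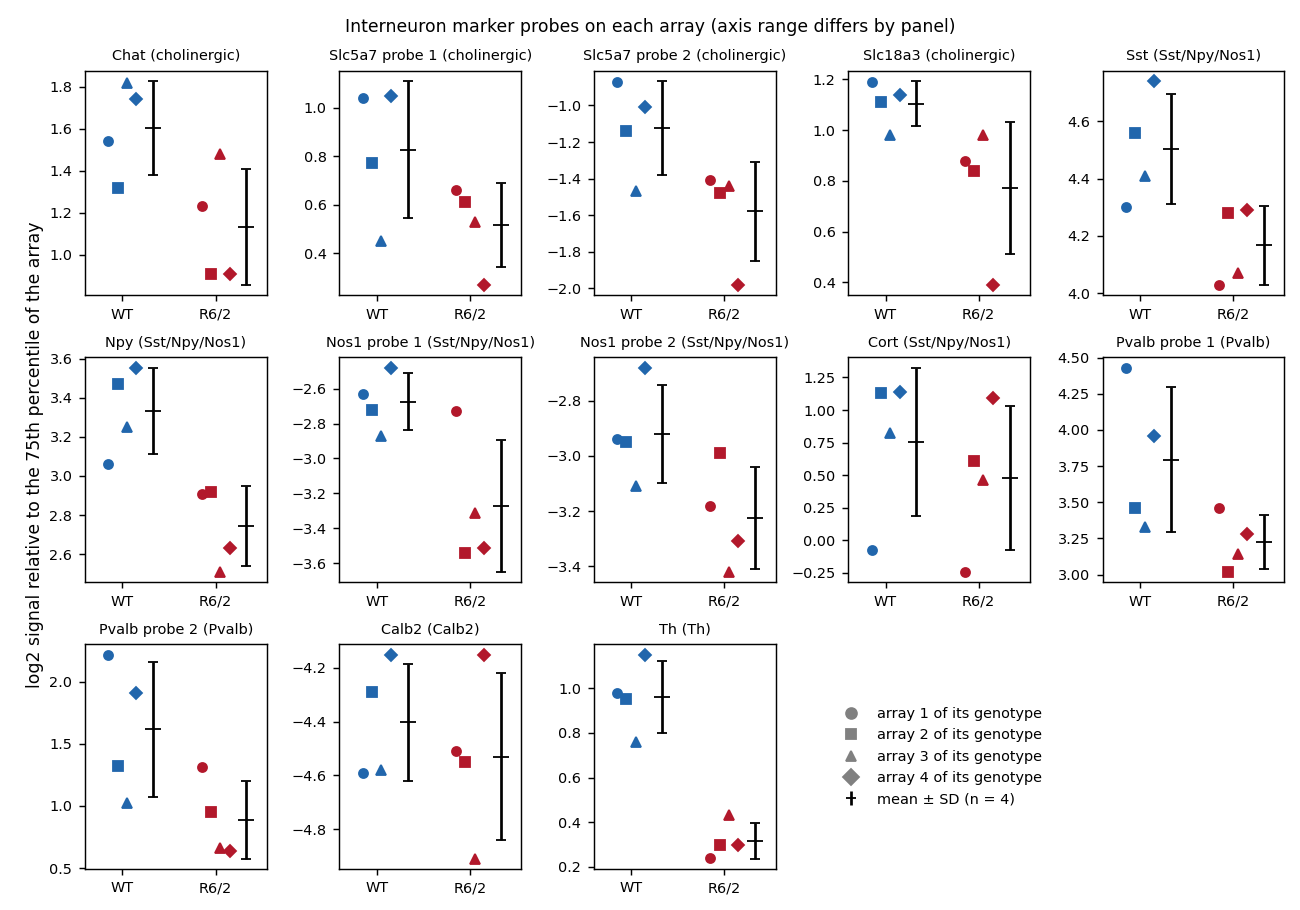
Log2 signal relative to the 75th percentile of the array (vertical axis, its range differing by panel) for each of the 13 probes on the 4 WT and 4 R6/2 arrays, with mean ± SD; marker shape gives the replicate number. The 4 R6/2 arrays of Th lie between 0.24 and 0.43, below the WT arrays at 0.76 to 1.15, while those of Calb2 and Cort overlap the WT arrays, with 1 R6/2 array of each below them all.

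The cholinergic genes had differences of -0.31 to -0.47, and 0 of their 4 probes passed the test. The Chat probe (chromosome 14, 33221421 to 33221480, minus strand) read 1.54, 1.32, 1.82 and 1.74 on the WT arrays and 1.23, 0.91, 1.48 and 0.91 on the R6/2 arrays. R6/2 3 lay within the WT range and the other R6/2 arrays below it. Chat has no other probe here, and whether RNA of other genes bound the run shown above was not tested. The difference was -0.47 ± 0.16 (SE, 4 arrays per genotype; adjusted p = 0.193), or 1.39-fold lower.

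Slc18a3, which encodes the vesicular acetylcholine transporter, is nested inside the Chat locus, and its probe (chromosome 14, 33275627 to 33275686) lies 54146 bases from that of Chat. It read 1.19, 1.11, 0.98 and 1.14 on the WT arrays and 0.88, 0.84, 0.98 and 0.39 on the R6/2 arrays. The groups were separated by 0.001 between WT 3 and R6/2 3, and R6/2 4 lay furthest below. The difference was -0.33 ± 0.13 (adjusted p = 0.251), and -0.20 without R6/2 4.

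Slc5a7 encodes the high-affinity choline transporter, whose 2 probes lie 379 bases apart on chromosome 17. The brighter probe (54413269 to 54413328) ranged from 0.45 to 1.05 on the WT arrays and from 0.27 to 0.66 on the R6/2 arrays, with a difference of -0.31 ± 0.15 (adjusted p = 0.349). At the second (54413708 to 54413767) the WT arrays ranged from -1.47 to -0.87 and the R6/2 arrays from -1.98 to -1.41, and the difference was -0.45 ± 0.17 (adjusted p = 0.226). Both probes overlapped between the genotypes, with R6/2 4 the lowest array at each, as it was at Slc18a3.

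In the Sst/Npy/Nos1 class, differences ran from -0.27 to -0.60, and 0 of 5 probes passed the test. Sst had its probe (chromosome 16, 23889776 to 23889835) printed in 10 spots per array, whose SD within an array was 0.025 to 0.041 on the log2 scale. Sst read 4.30, 4.56, 4.41 and 4.74 on the WT arrays and 4.03, 4.28, 4.07 and 4.29 on the R6/2 arrays. The groups were separated by only 0.012, between WT 1 and R6/2 4. Each array value averages the 10 spots, so the SD of single spots does not measure the error of that gap. The difference was -0.34 ± 0.12 (SE, 4 arrays per genotype; adjusted p = 0.191), or 1.26-fold lower.

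Npy (chromosome 6, 49773743 to 49777505, plus strand) had the smallest p of this class. It read 3.06, 3.47, 3.25 and 3.55 on the WT arrays and 2.91, 2.92, 2.51 and 2.63 on the R6/2 arrays, which left a gap of 0.141 between the genotypes. The difference was -0.59 ± 0.14 (adjusted p = 0.0831), or 1.51-fold lower, and it passed the test with normexp background correction (-0.57, adjusted p = 0.0363).

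Nos1, the neuronal nitric oxide synthase gene, was dim. Its first probe (chromosome 5, 118402831 to 118402890, plus strand) read -2.63, -2.72, -2.87 and -2.48 on the WT arrays and -2.73, -3.54, -3.31 and -3.51 on the R6/2 arrays. R6/2 1 lay within the WT range and the other R6/2 arrays below it, and the difference was -0.60 ± 0.18 (adjusted p = 0.157). The second probe, 1415 bases further on (118404306 to 118404365), had overlapping groups and a difference of -0.30 ± 0.12 (adjusted p = 0.265). With normexp these differences were -0.22 and -0.10. Nos1 overlaps 2 other annotated genes, Gm26995 and Gm30360, and the strand of their signal was not examined.

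Cort encodes cortistatin, a peptide related to somatostatin. Its probe (chromosome 4, 148499300 to 148499359) read -0.07, 1.13, 0.82 and 1.14 on the WT arrays and -0.24, 0.61, 0.46 and 1.09 on the R6/2 arrays. The arrays numbered 1 were the lowest of both genotypes, and the groups overlapped almost entirely, although R6/2 was lower in all 4 same-numbered pairs. The difference was -0.27 ± 0.34 (adjusted p = 0.735; 95% interval -1.06 to 0.52), and it ran from -0.55 without WT 1 to -0.03 without R6/2 1. Cort had an adjusted p of 0.195 (0.0369 unadjusted) in limma once the replicate number was added as a block.

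Both Pvalb probes read lower on average in R6/2, with a wide spread among the WT arrays, and neither passed the test. They lie 342 bases apart on chromosome 15. The brighter (78021951 to 78022010) read 4.43, 3.46, 3.33 and 3.96 on the WT arrays and 3.46, 3.02, 3.14 and 3.28 on the R6/2 arrays, a difference of -0.57 ± 0.24 (SE, 4 arrays per genotype; adjusted p = 0.271). The dimmer (78021549 to 78021608) read 2.22, 1.32, 1.02 and 1.91 on the WT arrays and 1.31, 0.95, 0.66 and 0.64 on the R6/2 arrays, a difference of -0.73 ± 0.28 (adjusted p = 0.233). WT 1 was the highest array at both probes, WT 4 came next, and WT 2 and WT 3 lay close to the R6/2 arrays. Without WT 1 the differences were -0.36 (adjusted p = 0.365) and -0.52 (adjusted p = 0.349).

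WT 1 was also the array on which markers of thalamus were highest. The mean of the 5 thalamus markers, each centred on its mean over the 8 arrays, was 1.79 on WT 1, -0.21 to 0.22 on the other WT arrays and -0.58 to -0.41 on the R6/2 arrays. Their summed signal was 3.99 to 13.8 times the 75th percentile in WT and 3.25 to 3.80 times in R6/2. Prkcd, a protein kinase C gene strong in thalamus, and Slc17a6, a glutamate transporter of thalamic neurons, read 2.28 and 0.55 on WT 1, with differences of -1.80 (adjusted p = 0.177) and -1.35 (adjusted p = 0.252). All 5 markers had a negative difference, 0 were called, and their part in the Pvalb values was not tested.

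Calb2 (chromosome 8, 112678555 to 112678614) was the dimmest member, with a mean signal of 22.0 units in WT and 20.4 in R6/2. It read -4.59, -4.29, -4.58 and -4.15 on the WT arrays and -4.51, -4.55, -4.91 and -4.15 on the R6/2 arrays. The groups overlapped, with the highest array of each genotype at the same value. The difference was -0.13 ± 0.17 (SE, 4 arrays per genotype; adjusted p = 0.754), and its 95% interval of -0.52 to 0.27 includes the differences of Chat, Sst and Slc18a3. The interval does not include the differences of Npy (-0.59), the first Nos1 probe (-0.60), the Pvalb probes (-0.57 and -0.73) or Th (-0.64). Those differences have errors of their own, so this does not show that Calb2 differs from them. With normexp the Calb2 difference was -0.02.

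Th was the member with the clearest separation. Its probe (chromosome 7, 150078703 to 150078762) read 0.98, 0.95, 0.76 and 1.15 on the WT arrays and 0.24, 0.30, 0.43 and 0.30 on the R6/2 arrays. All R6/2 arrays lay below all WT arrays, with a gap of 0.331. The difference was -0.64 ± 0.09 (SE, 4 arrays per genotype; adjusted p = 0.0259; 95% interval -0.86 to -0.42), or 1.56-fold lower. Of all probes, 3.34% were lower by at least as much. With the replicate number as a block the adjusted p was 0.0668, with 283 probes called in place of 529. The call was lost without any one array except WT 3 (adjusted p from 0.0631 to 0.0862, and 0.0244 without WT 3), while the difference stayed between -0.71 and -0.58. Th is also expressed by midbrain dopamine neurons, whose axons fill the striatum, and by immature neurons bound for the olfactory bulb. Slc6a3, the dopamine transporter gene that defines midbrain dopamine neurons, was dim and well above background on 7 of 8 arrays. Its mean was -4.42 in WT and -4.62 in R6/2 (adjusted p = 0.698), and a gene this dim can miss a change in such RNA. The part of such RNA in the Th value was not tested.

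**Figure D2:**
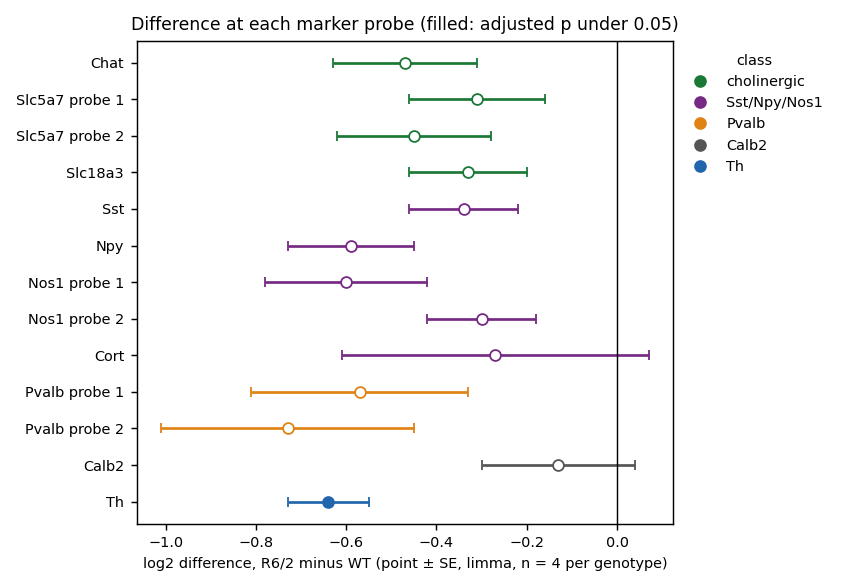
Log2 difference, R6/2 minus WT, for each of the 13 probes (horizontal axis; point ± SE, n = 4 per genotype), coloured by class and filled where the adjusted p is under 0.05. All points lie left of 0, from -0.73 to -0.13, and Th at -0.64 ± 0.09 is the filled point.

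The classes were then compared within arrays through Chat, Sst, Pvalb, Calb2 and Th, each at its brightest probe. Of 10 pairs, 0 differed between the genotypes at an adjusted p under 0.05 by the two-sided exact permutation test, and 0 had an unadjusted p under 0.05. The exact test of 4 against 4 arrays cannot go below p = 0.0286, which for a single separated pair among the 10 is an adjusted p of 0.286, so no pair could have passed on its own and the count of 0 does not show that the classes changed alike. The smallest p was that of Sst against Th, whose ratio was higher in R6/2 by 0.31 ± 0.11 (SE; exact p = 0.0571, adjusted p = 0.429). Calb2 against Th gave 0.52 ± 0.20 (exact p = 0.0857, adjusted p = 0.429). Chat against Pvalb gave 0.10 ± 0.32 (exact p = 0.886).

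Further genes of each class were taken from fixed lists, and 0 of the genes in any of these 6 lists passed the test, beside 1.46% of named genes called lower and 0.465% higher. Of 10 further genes of cholinergic neurons 7 had a negative difference, with a median of -0.24. Slc17a8, the vesicular glutamate transporter that cholinergic interneurons also carry, had a difference of -0.95 ± 0.19 (SE, 4 arrays per genotype; adjusted p = 0.0539). Isl1, a transcription factor of cholinergic and direct pathway neurons, had one of 0.46 ± 0.09 in the other direction (adjusted p = 0.0555). Genotypes did not overlap at either gene, but both are named for their smallest p, which favours separated groups. Of all probes, 6.19% were separated in each direction. Slc17a8 lay between -1.93 and -1.16 in WT and between -2.76 and -2.33 in R6/2.

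Of 7 further genes of the Sst/Npy/Nos1 class that were tested, 5 had a negative difference, with a median of -0.07. These genes are shared by most GABAergic or medial eminence-derived neurons. Lhx6, a transcription factor of such interneurons, had a difference of -0.34 ± 0.13 (adjusted p = 0.228), and Gad1, a GABA-synthesizing enzyme that projection neurons also express, one of -0.27 ± 0.14 (adjusted p = 0.367). Chodl, which marks the long-range nitric oxide neurons of this class, did not reach the background filter and was not tested.

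Receptors for somatostatin and neuropeptide Y were tested as the targets of the peptides. Of 8, 6 had a negative difference and the median was -0.14. The 2 of smallest p were positive: the neuropeptide Y receptors Npy1r (0.43 ± 0.12, adjusted p = 0.122) and Npy5r (0.37 ± 0.15, adjusted p = 0.263). Among the somatostatin receptors, all 5 of which had a negative difference, Sstr2 (chosen after its value was seen) had the most negative difference, -0.54 ± 0.22 (adjusted p = 0.266).

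Of 8 further genes of fast-spiking neurons 7 had a negative difference, with a median of -0.47. Pthlh, a peptide gene of striatal fast-spiking neurons, had a difference of -1.06 ± 0.21 (adjusted p = 0.0519), and Kcnc1, a potassium channel gene that allows fast firing, one of -0.29 ± 0.06 (adjusted p = 0.0599). At both, all R6/2 arrays lay below all WT arrays, as at 6.19% of all probes, and naming genes by smallest p favours such separation. Pthlh lay between -0.60 and 0.40 in WT and between -1.41 and -0.99 in R6/2. The list mean was 0.41 on WT 1, the highest of the 8 arrays, and -0.04 to 0.35 on the other WT arrays, against -0.32 to -0.17 on the R6/2 arrays.

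Of 7 genes of calretinin-containing and related caudal eminence neurons, 4 had a negative difference, with a median of -0.43. Nr2f2, a transcription factor of caudal eminence neurons, had a difference of -0.70 ± 0.14 (adjusted p = 0.0518) and Vip, a peptide gene expressed chiefly in cortical interneurons, one of -1.07 ± 0.35 (adjusted p = 0.179). Within R6/2, the mean of this calretinin list was lowest on R6/2 3 (-0.47) and highest on R6/2 4 (0.13). The cortex markers, given below, had the same lowest and highest R6/2 arrays (-0.70 and 0.34). In WT the highest arrays differed, WT 4 (0.33) for the calretinin list and WT 2 (0.38) for cortex. The part of cortical RNA in the calretinin list was not tested. Of 5 genes of catecholamine synthesis and transport that were tested, 4 had a negative difference, with a median of -0.20. Aldh1a1, an aldehyde dehydrogenase gene of dopamine neurons, had a difference of -0.30 ± 0.13 (adjusted p = 0.301) and Slc18a2, the vesicular monoamine transporter gene, one of -0.22 ± 0.14 (adjusted p = 0.470). Dbh and Slc6a2, which define noradrenergic neurons, did not reach the background filter.

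**Figure D3:**
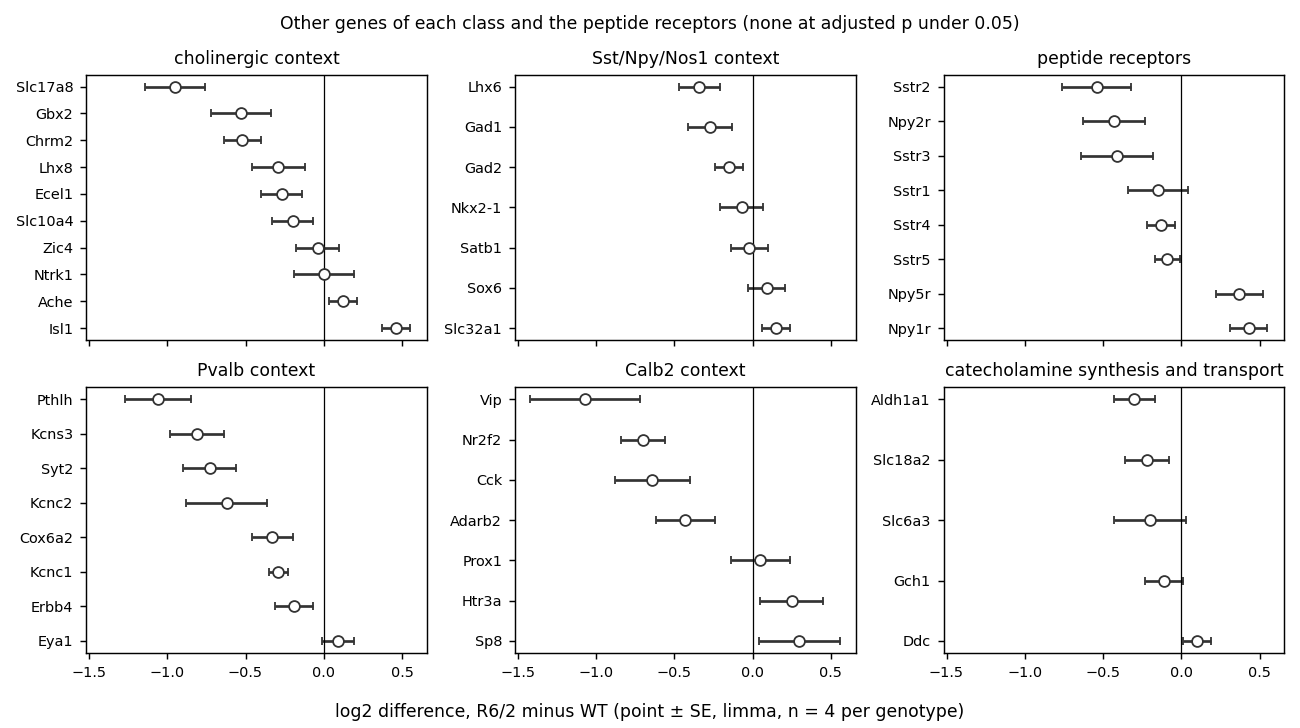
Log2 difference, R6/2 minus WT, for the tested genes of the 5 class lists and of the peptide receptors (horizontal axis; point ± SE, n = 4 per genotype). Differences run from -1.07 for Vip to 0.46 for Isl1, and 0 of them passed an adjusted p of 0.05.

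Genes of other cells in the tissue were read beside the members. For each of these lists, the share over all named genes was 1.46% called lower and 0.465% called higher. Of 10 markers of projection neurons 9 had a negative difference and 5 fell, among them Penk (-1.11, adjusted p = 0.0102), the enkephalin precursor, Pde10a (-0.99, adjusted p = 0.0246), a phosphodiesterase, Ppp1r1b (-0.73, adjusted p = 0.0291), which encodes DARPP-32, and Rgs9 (-0.74, adjusted p = 0.0465), which shortens G protein signals. All 10 were well above background on all 8 arrays, but so were the markers of cortex, thalamus and pallidum, so this does not check the label striatum. The mean of that list differed by -0.67, and 1 of 13 member probes lay below it. Of 8 genes of all neurons, all had a negative difference, 0 were called, and the mean differed by -0.20, led by Snap25 (-0.31, adjusted p = 0.0682) and Syt1 (-0.35, adjusted p = 0.0902). Taken relative to that mean, 12 of 13 member probes kept a negative difference. These comparisons with a mean are descriptions without a test.

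Of 6 cortex markers 0 were called, all had a negative difference, and the array means overlapped (-0.09 to 0.38 in WT, -0.70 to 0.34 in R6/2). Their summed signal was 12.4 to 18.8 in WT and 8.50 to 17.5 in R6/2, led by the glutamate transporter Slc17a7 (-0.63, adjusted p = 0.208) and Cux2 (-0.24, adjusted p = 0.263). R6/2 3 was the lowest array of this list and R6/2 4 the highest of R6/2. Among the members, R6/2 3 was the lowest R6/2 array at Npy, the second Nos1 probe and Calb2, and the highest at Chat, Slc18a3 and Th. Calb2, Cort (1.09, against 0.61 on R6/2 2) and Sst (4.29, against 4.28 on R6/2 2) were highest on R6/2 4 within R6/2. Of 5 pallidum markers 3 had a negative difference, and the transcription factor gene Npas1 fell (-0.77, adjusted p = 0.0185). The list median of -0.07 was the value of Nkx2-1, which is also in the Sst/Npy/Nos1 list. Whether these markers are particular to pallidum was not checked, so the median does not measure pallidal RNA. Of 5 markers of neuroblasts, which migrate beside the striatum, Dcx rose (0.60, adjusted p = 0.0489), 0 had a negative difference, and the median was 0.32. Of 16 genes of astrocytes, oligodendrocytes, microglia and endothelium 0 were called. Among the smallest p-values in each list were those of Gfap (0.34, adjusted p = 0.168) and Aldh1l1 (-0.09), of Mobp (-0.45, adjusted p = 0.300), of Aif1 (-0.31, adjusted p = 0.514) and Csf1r (-0.05), and of Cldn5 (-0.41, adjusted p = 0.445) and Flt1 (-0.09). The part of these other cells in the member values was not tested.

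**Figure D4:**
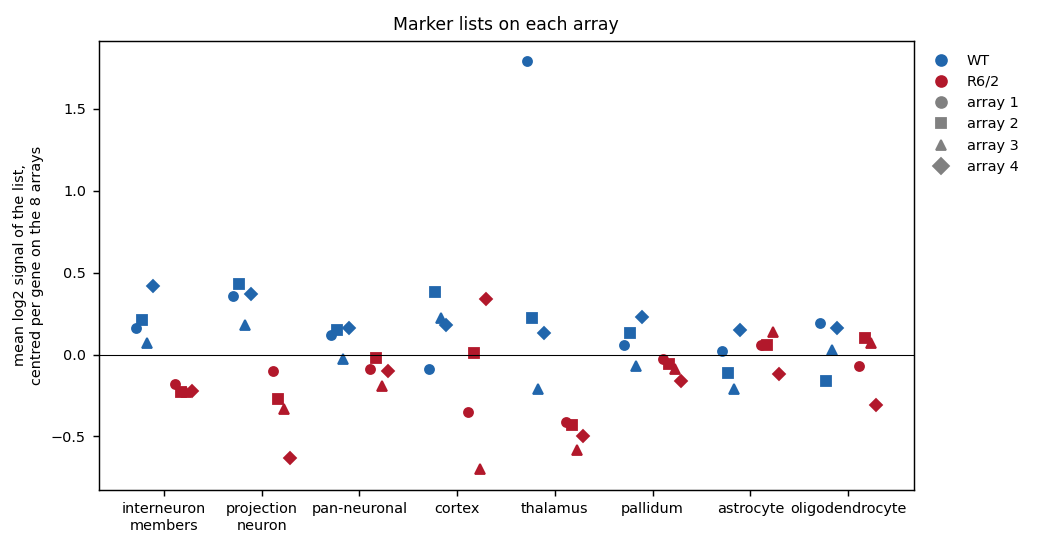
Mean log2 signal of each marker list on each array, every gene centred on its mean over the 8 arrays (vertical axis), for 4 WT and 4 R6/2 arrays; the members stand at the left, at their brightest probes. The members lie between 0.07 and 0.42 in WT and between -0.23 and -0.18 in R6/2, and the thalamus list stands at 1.79 on WT 1.

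For 5 members the named genes with the most similar values over the 8 arrays were found by the mean absolute difference of centred log2 values, among 16553 genes. They were Papola, Fcho1 and 2010320M18Rik for Chat (closest 0.0729), Wnt7a, Trpv6 and Sytl1 for Sst (closest 0.0462), and Flt3, Klk8 and Sh3bgr for Pvalb (closest 0.0685). For Calb2 they were Vsnl1, H2-Ob and Plxnc1 (closest 0.0665), and for Th they were Npl (0.0671), Chrna6 (0.0680) and Ccl25 (0.0735). The 3 genes nearest Th had differences of -0.60, -0.67 and -0.64 and were called lower in limma (adjusted p = 0.017, 0.0259 and 0.0102). These values lie close to those of Th because of how the genes were chosen.

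RefSeq promoter windows of 300 bases (GRCm38, 250 bases before to 50 after the start) were matched by symbol for 9 of the 10 genes, in 10 windows. They were searched on both strands for the palindromic cAMP response element TGACGTCA and, separately, for its half-site TGACG, which overlaps it. Both motifs were chosen after the member values were seen. The full element was in 2 member windows, those of Th and Sst, and in 1.79% of 32851 windows. The half-site was in 6 member windows, those of Chat, Slc18a3, Sst, Nos1, Cort and Th, and in 20.8% of all windows. Around the full element, in capitals, 50 bases are shown of each of the 2 member windows that hold it.
Th, chr7:142900016-142900065, minus strand: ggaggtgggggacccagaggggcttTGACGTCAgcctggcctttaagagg
Sst, chr16:23890865-23890914, minus strand: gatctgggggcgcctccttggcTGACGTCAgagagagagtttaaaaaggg
The element begins 45 bases upstream of the Th start and 48 bases upstream of the Sst start. Th passed the test and Sst did not, and a match describes letters in a window without showing a site in use.

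In the authors' deposited table all 13 probes are marked down in R6/2, with ratios from 1.08 for Calb2 to 1.64 for the dimmer Pvalb probe. In the authors' deposited table the adjusted p is 0.0715 for Th and 0.192 for Npy, and higher for the other members.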

How the data were processed

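Striatal RNA of 4 WT and 4 R6/2 samples was hybridised in 1 colour (Cy3), 1 array per sample. Spots were quantified by the authors with Agilent's Feature Extraction, version 10.7.3.1, per the file headers. The deposited intensity values are spot signals with no scaling between arrays. The log2 values, p-values and fold ratios in the authors' deposited table were used as an alternative or for comparison.

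The processed signal was divided by the 75th percentile of the array's non-control spots and taken to log2. Outlier spots were left out and spots of a probe averaged. Probes well above background on at least 4 of 8 arrays entered a linear model fitted in R 4.3.3 (limma 3.58.1, functions lmFit and eBayes), with Benjamini-Hochberg adjustment over all of them. The threshold for a call was an adjusted p of 0.05. The procedure was tested on simulated data. The number of arrays limits the precision.

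Probe positions are those of the files (mm9), and no annotation of that build was used here. Names came from transcript accessions (26762 probes), file symbols (3819) or synonyms (639) in the GRCm38.p6 gene table, and 24461 probes were unnamed. For genes outside the members, the brightest tested probe stands for the gene. The text names every member probe, up to 4 called genes of each list or otherwise the 2 of smallest p, and the 3 genes of most similar pattern for 5 members. One gene that this rule names is not reported here, and remains in the counts. Members and lists were chosen with earlier results of these data known. The lists comprised 5 class lists, the peptide receptors, and markers of projection neurons, all neurons, cortex, thalamus, pallidum, neuroblasts, astrocytes, oligodendrocytes, microglia and endothelium.

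Same-numbered samples of the genotypes shared a slide column, and their deviations from the genotype means correlated at 0.22, 0.18, 0.36 and 0.13. The number was therefore treated as pairing them and used as a block in an alternative fit. The labels state no such pairing, which rests on the slide columns and on correlations in these same data. The other alternatives were normexp (offset 50) with quantile normalization, median scaling, quantile normalization, the authors' values, filters, array weights, the methods' t-test and leaving out each array. A slide or scan block was not possible, since all arrays shared 1 slide and 1 scan.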

Additional observations from a re-analysis of the deposited data

Results flagged for a closer look

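The dimmer Slc5a7 probe stood apart on 1 R6/2 array. R6/2 4 read -1.98 there, against -1.48 to -1.41 on the other R6/2 arrays, and its gap to the nearest of them was 0.877 of the range of the genotype. It was the only one of 26 groups of 4 arrays (13 probes in 2 genotypes) past Dixon's critical value, which chance passes in about 1 group in 20. Without R6/2 4 the difference of the probe was -0.32.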

How the results depend on the processing

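The difference was negative for all 13 member probes in each of 17 alternatives, down to 0.00 after rounding for Calb2 without R6/2 3. Of 221 probe-by-alternative values, 210 kept their side of the threshold, 10 (all Th) lost the call and 1 (Npy, normexp) gained it. For Th these were median scaling (-0.56, adjusted p = 0.0704), no filter (adjusted p = 0.0725), the replicate block (adjusted p = 0.0668) and 7 of the 8 left-out arrays. Called member probes numbered 1, with 2 under normexp, 0 under median scaling, no filter and the replicate block, and 0 to 1 with an array left out. Over all probes 529 were called, against 1208 with normexp, 228 with median scaling, 110 with no filter, 283 with the replicate block, 1129 with array weights, 264 with the methods' t-test and 100 to 505 with an array left out. The share of calls that were lower was 75.6%, but 55.7% with median scaling, 61.3% with normexp and 63.5% with quantile normalization. The replicate block changed no other member call. The pairs of classes gave 0 calls throughout, with settings other than the second Pvalb probe chosen after seeing the data. Their smallest exact p was 0.0286 with normexp, the smallest the test can give (adjusted p = 0.143); with an array left out the exact test cannot go below p = 0.0571. No paired version of the pairs of classes was run. The Nos1 and Calb2 probes, though well above background, were dim, and normexp reduced their differences to -0.22, -0.10 and -0.02.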
